A study of Rattus norvegicus with 4 samples.

Results

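Warm oxygenated perfusion was compared with cold perfusion only in kidneys of male Wistar rats, in a model of transplantation from donors who die of cardiac arrest. The comparison rests on 2 of the 4 arrays of the study, the warm and the cold array, each hybridised with RNA pooled from 3 kidneys. Its members are the 9393 of 14217 named genes whose log2 expression value lay above a floor on at least 1 of the 4 arrays. Each gene was read from the probe set with the highest mean, and lower values were raised to the floor of 4.51, the 50th percentile of all values. All differences below are log2 values of the warm array minus log2 values of the cold array, so that 1 stands for 2-fold. Where 4 values of a gene follow each other they are log2 expression values in the order cold, warm, heparin and PPS.

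Every kidney came from an exsanguinated animal of 300 to 480 g and lay in the body for 29 min of warm ischaemia. After a flush, the left kidney underwent 3 h of cold machine perfusion with University of Wisconsin solution, a preservation fluid. RNA of the cold group was taken at that point. The warm group received a further 30 min of perfusion with oxygenated, modified Krebs-Henseleit buffer, which holds salts and no blood cells. The heparin and PPS groups were perfused like the warm group, with 10 IU/ml of heparin (of low molecular weight) or of PPS, spelled out nowhere in the labels, in both perfusates. Each group was labelled from 6 ug of total RNA on 1 array. With 1 pooled array on each side there is no replicate check, no difference below has a p-value or a standard error, and a limit of 2-fold is used in place of a test. No kidney without ischaemia was analysed here, so the cold array is a kidney that had already been ischaemic and perfused.

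When oxygen and warmth return to an ischaemic organ, cells first transcribe immediate early genes, whose products are transcription factors and feedback inhibitors that need no new protein synthesis to be induced. NF-kappaB, a transcription factor held in the cytoplasm by inhibitors such as the product of Nfkbia, drives chemokine genes and, with them, its own inhibitors. Heat shock factor induces chaperones when proteins misfold, and interstitial fibroblasts between the tubules make most of the collagen and small proteoglycans of the kidney.

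The samples read as kidney. Umod, the urinary protein of the thick ascending limb, had a level of 15.39 (cold) and 15.52 (warm). Slc34a1, the phosphate transporter of the proximal tubule, had 15.05 and 14.92, and the water channel Aqp2 of the collecting duct had 13.52 and 13.59. These defining genes of 3 nephron segments thus differed by 0.13, -0.13 and 0.07. Markers of blood cells, fat, adrenal gland, nerve and skeletal muscle were mostly at the floor: 2 of 19 neutrophil and mast cell genes on the array, 4 of 32 T, NK and B cell genes, 3 of 11 red cell and platelet genes, 5 of 24 fat cell and adrenal genes and 7 of 28 nerve and skeletal muscle genes lay above it. S100a8, S100a9, Cd3d and Adipoq were among those at the floor. Of the urothelium list, 8 of 23 genes lay above it, the uroplakins Upk1a, Upk1b, Upk2 and Upk3a not among them, and 1 was higher and 1 lower (Psca, 1.01, and Grhl1, -1.76 with the warm array at the floor). Of the mesothelium and capsule list, 11 of 14 genes lay above the floor, with Msln, Bnc1 and Rspo1 at it. Of these 11, 5 were higher and 0 lower, with a median of 0.52: Krt18, Krt19, Wt1, Efemp1 and Slpi, a protease inhibitor (6.55, 8.24, 8.34 and 8.89). Podocytes also express Wt1 and collecting duct Krt18 and Krt19, and the part of capsule in these differences was not tested.

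Control probe sets were lower on the cold array than on the others. The 24 probe sets for poly-A controls, transcripts added before labelling, were all higher after warm perfusion, by a median of 1.25, and so were all 18 for hybridisation controls, by 0.44. Against the cold array, the heparin and PPS arrays had medians of 1.28 and 1.10 for poly-A controls and 0.15 and 0.66 for hybridisation controls. The hybridisation controls thus also differed among the warm-perfused arrays, and only the poly-A controls set the cold array clearly apart. The gap between the 3' and the 5' probe set, larger where RNA is shorter, was 2.79 (cold) and 3.22 (warm) for beta-actin and 0.60 and 0.84 for GAPDH. Scaling to the poly-A controls moves the median over all genes from -0.0032 to -1.19 and scaling to the hybridisation controls moves it to -0.45. Higher and lower are therefore meant relative to the middle of all genes: of 41 gene lists with a median above 0, 40 turn negative under the poly-A scaling, the exception being the immediate early genes, and 30 do so under the hybridisation scaling. The part of RNA quality or of the amount of messenger RNA in any difference below was not tested.

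Most genes lay near their cold level on the warm array, and a small set lay far from it. Of 9393 genes, 233 (2.48%) were higher by 2-fold or more after warm perfusion and 109 (1.16%) lower, 3.64% in either direction, while 85.8% differed by less than 0.5. Scaled to the poly-A controls the counts were 68 higher and 7136 lower, and scaled to the hybridisation controls 116 and 417. The higher side reached further: 66 genes were at least 4-fold higher and 16 at least 4-fold lower, 41 and 4 passed 8-fold, and 25 and 0 passed 16-fold. The differences ran from -3.69 for Cpne7, a calcium-dependent membrane-binding protein, to 8.96 for the AP-1 subunit Fosb, where 1 side at the floor makes the latter a lower bound. For 38 of the higher genes the cold array and for 12 of the lower genes the warm array was at the floor.

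Genes with low signal were called more often. With the genes split by mean signal into 5 groups of equal size, 4.58% of the dimmest group were higher and 2.82% lower, against 0.852% and 0.373% of the brightest. The median difference was 0 in the dimmest group and -0.06 in the brightest. Other probe sets of the same gene were compared where the cold or the warm array exceeded the floor. In 30 higher genes, 33 of 34 differed in the same direction, 19 of them past 2-fold. In 19 lower genes 21 of 22 did, 11 past 2-fold. A probe set counted only through its warm array can only lie higher, and 1 counted only through its cold array only lower. Part of this agreement was therefore fixed by the filter, as for Aqp4, Nr4a3 and Dpep1. The exceptions were Naa16, with 1.12 on its main probe set and -0.90 on the other, and Egfr, with -1.44 and 0.40. The choice of limit decides genes that lie on it: Tent5a (1.00), Olr1 (1.01, with the cold array at the floor) and Ogn (-1.02) lay just inside the called genes, and the cystine transporter gene Ctns (-0.997) just outside.

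**Figure D1:**
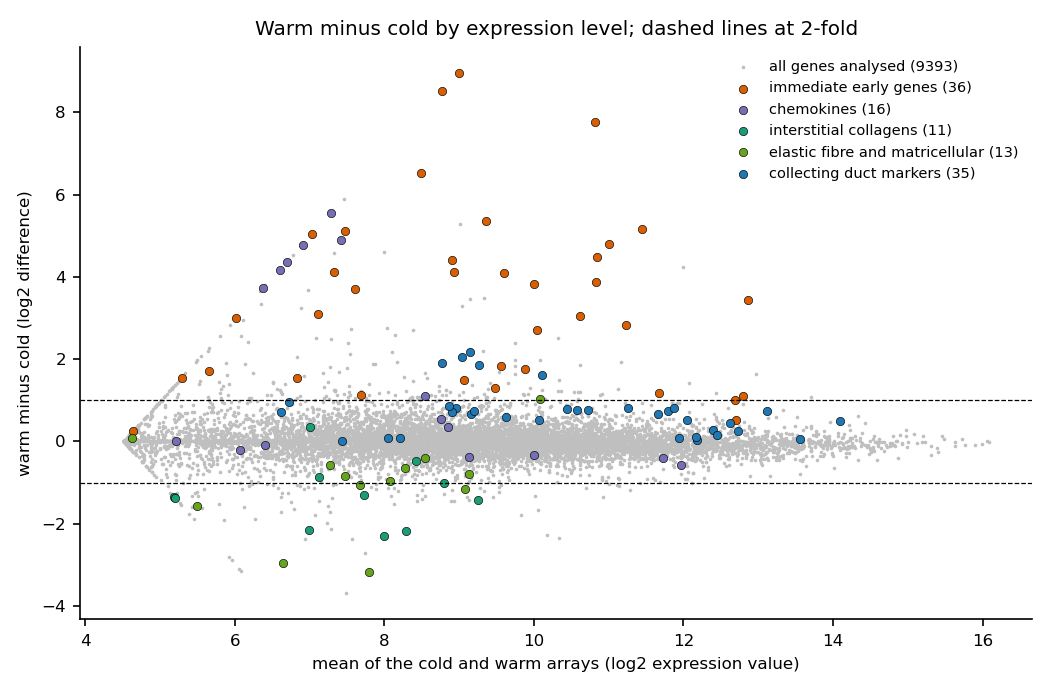
Difference between the warm and the cold array (vertical axis, log2) against the mean of both arrays (horizontal axis, log2 expression value) for the 9393 genes analysed, with 5 gene lists in colour and dashed lines at 2-fold. Immediate early genes reach 8.96 and the elastic fibre and matricellular genes reach -3.18; points on the oblique edges at the left have 1 array at the floor. Heights are as deposited. Scaling to the poly-A controls would lower genes clear of the floor by about the same amount, and genes with an array at the floor by other amounts.

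Called genes lay both inside and outside the lists of early-response, inflammatory and stress genes. Of the 233 higher genes, 90 belong to such lists and 143 to none of these, and of the 109 lower genes 6 and 103. The share of all genes in these lists was not counted. The 143 include Ptgs2, an early-response gene in many cells, so they are not all outside the early response. The 78 gene lists used here hold only 1726 of the 9393 genes analysed, so most genes lie outside any of them. Of the 1726, 118 were higher and 57 lower, and the 7667 genes of no list held 115 and 52. The comparison for each list count is the share of all genes, 2.48% higher and 1.16% lower. A single called member of a long list lies near these shares. The medians of 39 of the 78 lists lay within 0.1 of 0. The heparin and PPS arrays share the cold array with this comparison, and the called genes were chosen on the warm array, so the following is a description: the higher genes had medians of 1.40 (warm), 0.74 (heparin) and 0.68 (PPS) against cold, and the lower genes -1.32, -1.02 and -0.77.

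**Figure D2:**
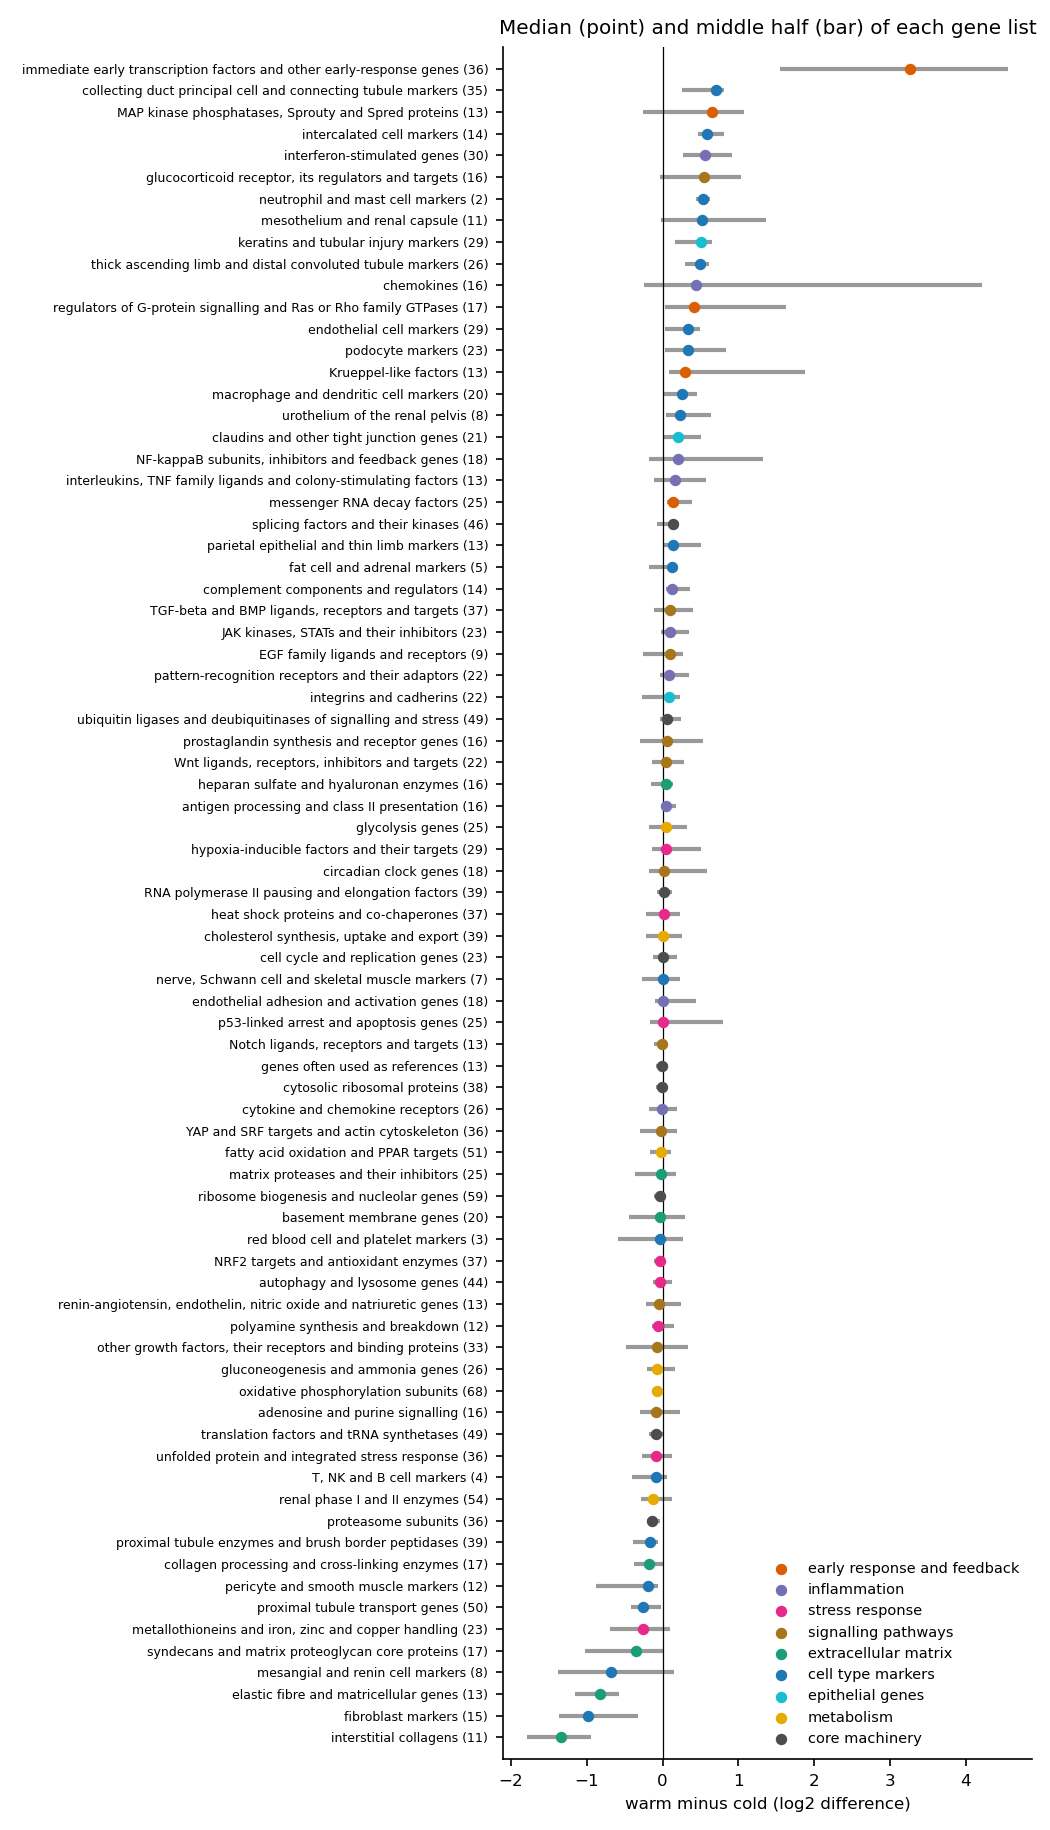
Median (point) and middle 50% (bar) of the difference between the warm and the cold array, in log2, for 78 gene lists, with the number of genes analysed in parentheses and colours for the theme of the list. The immediate early genes lie at 3.26, interstitial collagens at -1.34 and most lists near 0; relative to the poly-A controls only the immediate early list keeps a median above 0.

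The early-response list is given briefly. Of 36 genes above the floor, 34 were higher (94.4%, against 2.48% of all genes) and 0 lower, with a median of 3.26 beside -0.0032 for all genes. The members that stayed within 2-fold were Mcl1, an anti-apoptotic protein (0.52), and Csrnp2 (0.26). Another 6 of the 42 list genes on the array did not exceed the floor on any array and were not counted. A gene at the floor on the cold array was counted only where another array exceeded the floor, and it could not be lower. The same filter was used for all genes. The list was chosen with earlier results of these data known, so the share of 94.4% describes this choice of genes. Jun, the partner of Fos in AP-1, had 11.14 (cold), 14.57 (warm), 13.69 (heparin) and 12.96 (PPS). Klf2, a transcription factor of endothelial cells under flow, had 9.10, 12.14, 11.24 and 10.80. For both, all 3 warm-perfused arrays lay above the cold array. The summed linear signal of the list was 26276 (cold) and 188887 (warm).

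Some feedback inhibitors of signalling were higher. Among 13 MAP kinase phosphatases, Sprouty and Spred proteins, which dephosphorylate or block the kinases upstream of AP-1, 4 were higher: Dusp1 (4.79), Dusp2 (2.52), Dusp5 (1.63) and Spry1 (1.07). Their relatives Dusp3 (-0.31), Dusp7 (-0.48) and Spry4 (-0.58) lay below 0, so that the list as a whole had 7 members above and 6 below 0 and a median of 0.65. Of 17 regulators of G-protein signalling and small GTPases, 6 were higher. Rgs2, which shortens signals from Gq-coupled receptors, had log2 values of 7.41 (cold), 10.88 (warm), 10.24 (heparin) and 9.86 (PPS). Its second probe set differed by 4.24. Gem, an inhibitor of calcium channels, differed by 2.05, and the small GTPases Rhob and Rhou differed by 1.63 and 1.14, while Rhoa differed by -0.12.

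Factors that destroy unstable messenger RNAs were represented by few members. Of 25 such genes, 2 were higher: Zfp36 (4.48), which binds AU-rich elements, and Zc3h12a (3.24), an RNase that cuts cytokine transcripts. The Zfp36 relatives Zfp36l1 (0.73) and Zfp36l2 (0.59) and the anti-proliferative genes Tob1 (0.82) and Btg1 (0.77) were within 2-fold. The deadenylase subunits lay close to 0, with Cnot1 at -0.18 and Cnot7 at 0.13.

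Of 16 chemokine genes above the floor, 7 were higher, 0 lower and 9 within 2-fold, with a median of 0.45. The neutrophil attractants Cxcl1 and Cxcl2 and the macrophage inflammatory proteins Ccl3 and Ccl4 did not exceed the floor in the cold kidneys and reached 10.05, 9.30, 8.24 and 8.88, respectively, on the warm array. Ccl20, the ligand of CCR6, was at the floor on the cold and PPS arrays, at 8.69 on the warm and at 4.95 on the heparin array, and was thus at least 18.0-fold higher on the warm than on the cold array. The monocyte attractant Ccl2 had 8.48, 9.03, 8.03 and 7.88, a difference of 0.55. Other members lay slightly below 0: Cxcl12, the stromal chemokine, had 12.25 and 11.69, Cx3cl1 differed by -0.33 and Cxcl16 by -0.39. Another 15 chemokine genes on the array, among them Ccl5, Ccl7 and Cxcl9, were at the floor on all 4 arrays.

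Promoter sequences of Cxcl1, Cxcl2, Ccl20 and Nfkbiz are shown because they carry the letters that NF-kappaB binds. The higher chemokine genes Cxcl10 and Cxcl11 also hold a match and are not shown. RefSeq gives a promoter window for 7893 of the genes analysed (assembly GRCr8), and 7422 have a single window. In the 250 bases before the start, searched on both strands, the NF-kappaB consensus was found in 5 of 13 chemokine genes analysed, 5 of 14 genes of NF-kappaB subunits, inhibitors and feedback, 13.7% of 183 higher genes, 6.67% of 75 lower genes and 8.07% of 7164 genes within 2-fold. Over all 24206 genes of the table with a single window the share was 6.40%. The last 120 bases before the start follow, 5′ to 3′ on the strand of the gene, with matches to the NF-kappaB consensus in capitals. The intervals are chr14:17479322-17479441 (minus strand) for Cxcl1, chr14:17467256-17467375 (minus) for Cxcl2, chr9:91837039-91837158 (plus) for Ccl20 and chr11:58251601-58251720 (plus) for Nfkbiz.
Cxcl1: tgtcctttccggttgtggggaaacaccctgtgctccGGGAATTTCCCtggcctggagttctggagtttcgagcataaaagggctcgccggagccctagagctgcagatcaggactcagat
Cxcl2: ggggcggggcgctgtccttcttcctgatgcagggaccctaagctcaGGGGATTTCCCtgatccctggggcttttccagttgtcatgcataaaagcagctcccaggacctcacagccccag
Ccl20: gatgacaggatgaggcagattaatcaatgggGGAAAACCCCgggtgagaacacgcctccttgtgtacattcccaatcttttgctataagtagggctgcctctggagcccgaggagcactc
Nfkbiz: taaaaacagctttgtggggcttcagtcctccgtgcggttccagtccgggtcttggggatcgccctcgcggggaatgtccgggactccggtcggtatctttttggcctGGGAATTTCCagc
In Cxcl1 and Cxcl2 the capitals hold 2 overlapping matches. A match describes these letters and not a bound site.

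Several inhibitors and regulators of NF-kappaB were higher, and its subunits were within 2-fold. Of 18 genes of the list, 7 were higher and 0 lower, with a median of 0.20. Nfkbia, the inhibitor that retains NF-kappaB in the cytoplasm, had log2 values of 9.69 (cold), 11.55 (warm), 10.66 (heparin) and 10.07 (PPS). Tnfaip3, a ubiquitin-editing enzyme that ends the signal, had 6.66, 9.42, 8.48 and 8.02. Both were highest on the warm array and above the cold array on all 3 others. Bcl3 differed by 1.06, and Map3k8 (at least 7.17-fold), Nfkbid (at least 2.59-fold) and Birc3 (at least 2.24-fold) were higher with the cold array at the floor. The subunits Rela (0.12), Nfkb1 (-0.34) and Nfkb2 (0.42), the kinases Ikbkb (-0.19) and Chuk (-0.36) and the deubiquitinase Cyld (-0.44) were within 2-fold. None of 22 pattern-recognition receptors and adaptors passed the limit in either direction; Ripk2 (0.90) and Cd14 (-0.75, with the warm array at the floor) were the outermost.

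Cytokines and their receptors differed in few members. Of 13 cytokine genes 2 were higher, Il1b (6.32 (cold), 8.71 (warm), 7.75 (heparin) and 7.14 (PPS)) and Il18 (1.13). Tnf was at the floor on the cold, heparin and PPS arrays and at 5.46 on the warm array, at least 1.92-fold higher. Il6, Il10, Csf2 and Lif were at the floor on all arrays. Of 26 receptors 3 were higher: Cxcr4 (floor in cold, 8.16 in warm kidneys), the TWEAK receptor Tnfrsf12a (1.88) and Lifr (1.47). Both other probe sets of Cxcr4 likewise left the floor, reaching 7.48 and 7.11 in the warm kidneys. Socs3, the feedback inhibitor of the JAK kinases, was the only 1 of 23 JAK and STAT genes past the limit, at least 4.21-fold higher, while Cish, of the same family, had 9.17, 8.49, 6.85 and 7.14 on the cold, warm, heparin and PPS arrays.

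Most interferon-stimulated genes lay above 0. Of 30 genes, 24 lay above 0 and 5 were higher, with a median of 0.56 beside -0.0032 for all genes and 46.0% of all genes above 0. Irf1, a transcription factor of the interferon response, had log2 values of 7.59 (cold), 11.08 (warm), 9.03 (heparin) and 8.80 (PPS). Isg15, a ubiquitin-like modifier, had 7.20, 9.14, 7.76 and 7.29, so that only the warm array stood apart. Mx1 (0.72), Irf7 (0.61) and Irf9 (0.63) were within 2-fold, and Stat2 differed by 0.13. Of 16 genes of antigen processing and class II presentation 0 passed the limit, with Tap1 at 0.79, Cd74 at 0.17 and B2m at -0.0041.

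Adhesion and complement genes were mostly level. Icam1, which holds leukocytes to endothelium, had 8.77 (cold), 10.74 (warm), 9.27 (heparin) and 9.28 (PPS), while Vcam1 differed by -0.11, and Sele and Selp were at the floor. Von Willebrand factor (Vwf) had 9.42, 8.47, 7.83 and 8.47, with all 3 warm-perfused arrays below the cold array. Among 14 complement genes, Cd55, a membrane inhibitor of complement, was higher (6.92 (cold) and 8.13 (warm)). C1r and C1s, the proteases of the first complement component, were lower, at 9.16 and 7.72 for C1r and 10.89 and 9.22 for C1s. The C1q chains, made by macrophages, went the other way without passing the limit, with C1qa at 0.46, C1qb at 0.37 and C1qc at 0.36. Macrophage and dendritic cell markers had a median of 0.26 with 0 of 20 past the limit, Ptprc at 0.23 and Csf1r at 0.16. In whole tissue, fewer cells of a type and less RNA per cell cannot be told apart.

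Of 37 heat shock genes, 5 were higher and 0 lower, with a median of 0.01, and the 5 encode cytosolic chaperones. Hspa1a, the inducible HSP70, had 9.87 (cold), 14.11 (warm), 12.99 (heparin) and 12.68 (PPS). Its co-chaperone Dnajb1 had 11.36, 12.78, 11.79 and 11.32, with the warm array apart from the other 3, and a second probe set of Dnajb1 differed by 1.64. Hspb1 (2.52), a small heat shock protein, Dnajb4 (1.21) and Hspa2 (1.16) completed the called members. Hsph1 (0.24), Bag3 (0.14), Hsp90ab1 (0.12) and the mitochondrial chaperones Hspd1 (-0.03), Hspe1 (-0.11) and Hspa9 (-0.32) were within 2-fold. Hspa1a has a near-identical neighbour, Hspa1b, so its probe set may read both.

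The unit that heat shock factor binds, searched as GAANNTTC, which reads the same on both strands, stood in the 250 bases before the start of 11 of 31 heat shock genes analysed (35.5%). The share was 8.20% of the higher genes, 8.0% of the lower genes, 4.80% of the genes within 2-fold and 6.94% of all genes of the table with a single window. Of the 4 higher heat shock genes with a single window, Dnajb1 and Hspb1 hold the unit, and Hspa1a, with the largest difference of the list, and Hspa2 do not. The first 2 windows are shown with that unit in capitals, from chr19:41431142-41431261 (minus strand) for Dnajb1 and chr12:26432302-26432421 (minus strand) for Hspb1, GRCr8.
Dnajb1: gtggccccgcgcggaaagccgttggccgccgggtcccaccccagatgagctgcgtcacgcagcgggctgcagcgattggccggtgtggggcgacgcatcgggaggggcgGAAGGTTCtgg
Hspb1: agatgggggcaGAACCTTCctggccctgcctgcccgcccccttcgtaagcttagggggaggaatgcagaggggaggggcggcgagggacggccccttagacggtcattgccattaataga

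Among genes that respond to unfolded proteins or paused translation, Ppp1r15a, Ddit3 and Ddit4 were higher. Ppp1r15a, which restarts translation, had 5.70 (cold), 10.30 (warm), 8.57 (heparin) and 7.68 (PPS), and the transcription factors Ddit3 and Atf4 differed by 1.97 and 0.94. Ddit4, an inhibitor of mTORC1, differed by 1.70. Of the 36 genes, these 3 (Ppp1r15a, Ddit3 and Ddit4) were higher, 0 were lower and 21 lay below 0. The chaperones and folding enzymes Hspa5 (-0.02), Calr (-0.23), Hsp90b1 (-0.33), Pdia4 (-0.88) and Manf (-0.87) were within 2-fold. Xbp1 and Atf6, transcription factors of the other arms, differed by -0.22 and -0.23.

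Arrest, hypoxia and redox genes each held a few higher members among level ones. Of 25 p53-linked genes, 6 were higher: Cdkn1a, Gadd45a, Gadd45b, Gadd45g, Plk2 and Bcl2l11. The Gadd45 genes and Plk2 are also counted in the early-response list. Cdkn1a, the cell cycle inhibitor p21, had 6.94 (cold), 8.82 (warm), 6.86 (heparin) and 6.85 (PPS). Only the warm array was high for that gene. Other members of the list, Mdm2 (-0.07), Ccng1 (-0.09) and Sesn1 (-0.28), were level, as was the median of the list at 0. Of 29 hypoxia-linked genes, 4 were higher: Adm, a vasodilator peptide (6.19, 8.92, 7.84 and 7.47), Pfkfb3 (2.20), Ddit4 (1.70) and Egln3 (1.24). Vegfa (0.33), Bnip3 (-0.14), Ndrg1 (-0.15) and Hif1a itself (-0.04) were within 2-fold.

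Among 37 NRF2 targets and antioxidant enzymes, 3 were higher and 1 lower (8.11% and 2.70%, against 2.48% and 1.16% of all genes). Nqo1, a quinone reductase, had log2 values of 6.67 (cold), 7.72 (warm), 7.41 (heparin) and 7.42 (PPS), and Srxn1, which repairs oxidised peroxiredoxins, had 5.29, 6.35, 5.89 and 5.89. Gpx2, a glutathione peroxidase of epithelia, differed by 1.62. Gsr, glutathione reductase, was lower on all 3 warm-perfused arrays, at 9.44, 8.16, 7.82 and 8.02. Hmox1, haem oxygenase, was at the floor except on the warm array (5.45). Sod2 (0.06), Cat (0.02), Gclc (-0.10) and Txnrd1 (-0.31) were level. Of 23 genes of metal handling, 3 were lower: Cp, the copper oxidase ceruloplasmin (-1.05), Steap4, a metal reductase (-1.21), and Ireb2, an iron sensor (-1.13). The metallothionein Mt2A differed by 0.72. Sat1, the rate-limiting enzyme of polyamine breakdown, was the only higher 1 of 12 polyamine genes, at 13.16 (cold) and 14.26 (warm). The lysosomal enzyme Gla was the only higher 1 of 44 autophagy and lysosome genes (1.12). That is 2.27% of the autophagy and lysosome list, near the 2.48% of all genes.

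**Figure D3:**
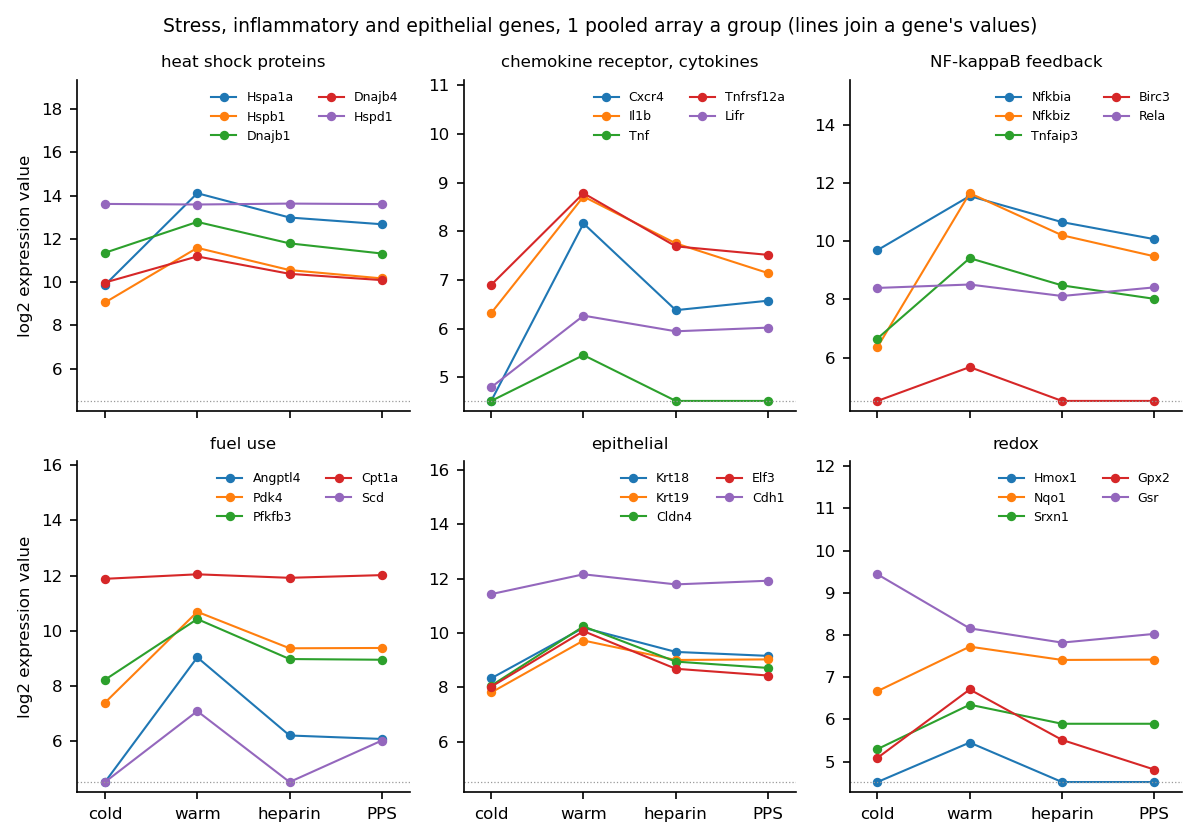
Log2 expression values of 30 stress, inflammatory, metabolic and epithelial genes on the cold, warm, heparin and PPS arrays, 1 pooled array a group; lines join the values of a gene, the dotted line is the floor, and lower values were raised to it. Hspa1a, Nfkbia, Angptl4, Pdk4, Krt18 and Cldn4 peak on the warm array, while Hspd1, Rela and Cpt1a stay level on the scale as deposited.

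Among genes of fuel use, Angptl4, Pdk4 and Pfkfb3 were higher. Angptl4, an inhibitor of lipoprotein lipase, was at the floor in the cold kidneys and at 9.04 (warm), 6.20 (heparin) and 6.08 (PPS), at least 23.0-fold higher in the warm than in the cold kidneys. Pdk4, the kinase that shuts pyruvate out of the mitochondrion, had 7.39, 10.69, 9.36 and 9.38. They were the only higher members of 51 genes of fatty acid oxidation and PPAR targets (3.92%, against 2.48% of all genes), whose median was -0.02. Cpt1a (0.16), which admits fatty acids to mitochondria, Acadm (-0.02), Hadha (-0.10) and Ehhadh (-0.26) were level, and Ppara and Pparg were at the floor. Pfkfb3, the enzyme that makes the activator of phosphofructokinase, had 8.22 (cold), 10.42 (warm), 8.97 (heparin) and 8.95 (PPS). The enzymes of glycolysis themselves were level, with Ldha at 0.14, Pgk1 at -0.04 and Eno1 at -0.24.

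The promoter of Angptl4 is shown for its TATA box, as TATAAA (both strands) stood in the 250 bases before the start of 19.7% of higher genes, 12.0% of lower genes, 5.74% of genes within 2-fold and 13.3% of all genes of the table with a single window. Among the higher genes that are not in the early-response list the share was 16.9%. The capitals hold that box, with an overlapping match on the other strand, in chr7:15258682-15258801 (minus strand, GRCr8). Dpt, a lower gene described below, carries it as well, in chr13:79656221-79656340 (plus strand).
Angptl4: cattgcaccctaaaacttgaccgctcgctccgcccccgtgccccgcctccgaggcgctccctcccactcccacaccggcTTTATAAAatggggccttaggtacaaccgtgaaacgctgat
Dpt: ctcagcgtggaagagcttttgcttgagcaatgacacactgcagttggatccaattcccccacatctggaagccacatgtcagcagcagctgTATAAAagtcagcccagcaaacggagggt
TGANTCA, the AP-1 letters, stood in 10.9% of higher, 5.33% of lower and 4.01% of genes within 2-fold, and in 0 of 25 early-response genes. TGACGTCA, the letters bound by CREB, stood in 5.46%, 1.33% and 2.99%, and in 5 of the 25. The CArG box of SRF stood in 3.83%, 1.33% and 1.19%, and in 5 of the 25. CACGTG and GGGCGG stood in 10.4% and 56.8% of higher, 1.33% and 52.0% of lower and 8.86% and 60.6% of genes within 2-fold.

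Respiration, lipid synthesis and the machinery of gene expression were close to 0. Of 68 oxidative phosphorylation subunits 0 passed the limit, and their median was -0.07. Of 38 cytosolic ribosomal proteins, 36 proteasome subunits, 49 translation factors and tRNA synthetases and 46 splicing factors 0 passed it, with medians of -0.01, -0.14, -0.09 and 0.13. In the proteasome list 30 of 36 subunits lay below 0, and in the oxidative phosphorylation list 55 of 68. Scd, which puts the double bond into stearate, was the only called member of 39 genes listed under cholesterol synthesis, uptake and export: it was at the floor on the cold and heparin arrays, at 7.08 on the warm and at 6.02 on the PPS array. Insig1 (0.90) and Idi1 (0.88) were within 2-fold and the rate-limiting Sqle was level (0.09). The cyclin gene Ccnl1 was the only called member of 39 genes listed under RNA polymerase II pausing and elongation (1.26). Myc (6.06 (cold), 7.59 (warm), 6.18 (heparin) and 6.06 (PPS)) was the only called member of 59 genes of ribosome biogenesis, in which its targets Ncl (0.51), Nop56 (0.35) and Fbl (0.05) were within 2-fold. Scd, Ccnl1 and Myc make up 2.56%, 2.56% and 1.69% of their lists, near the 2.48% of all genes that were higher.

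Genes of the distal nephron lay above, and those of the proximal tubule below, the middle of all genes. All 35 markers of collecting duct principal cells and connecting tubule lay above 0, with a median of 0.70, and so did 24 of 26 genes of thick ascending limb and distal tubule, with a median of 0.50, beside 46.0% of all genes. Of 50 proximal transport genes 39 lay below 0, with a median of -0.25, and of 39 proximal enzymes 32 did, with a median of -0.17. These shifts are within 2-fold for most members, and the positive ones turn negative when scaled to the poly-A controls. The share of each segment in the pooled tissue and the RNA per cell cannot be told apart here.

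**Figure D4:**
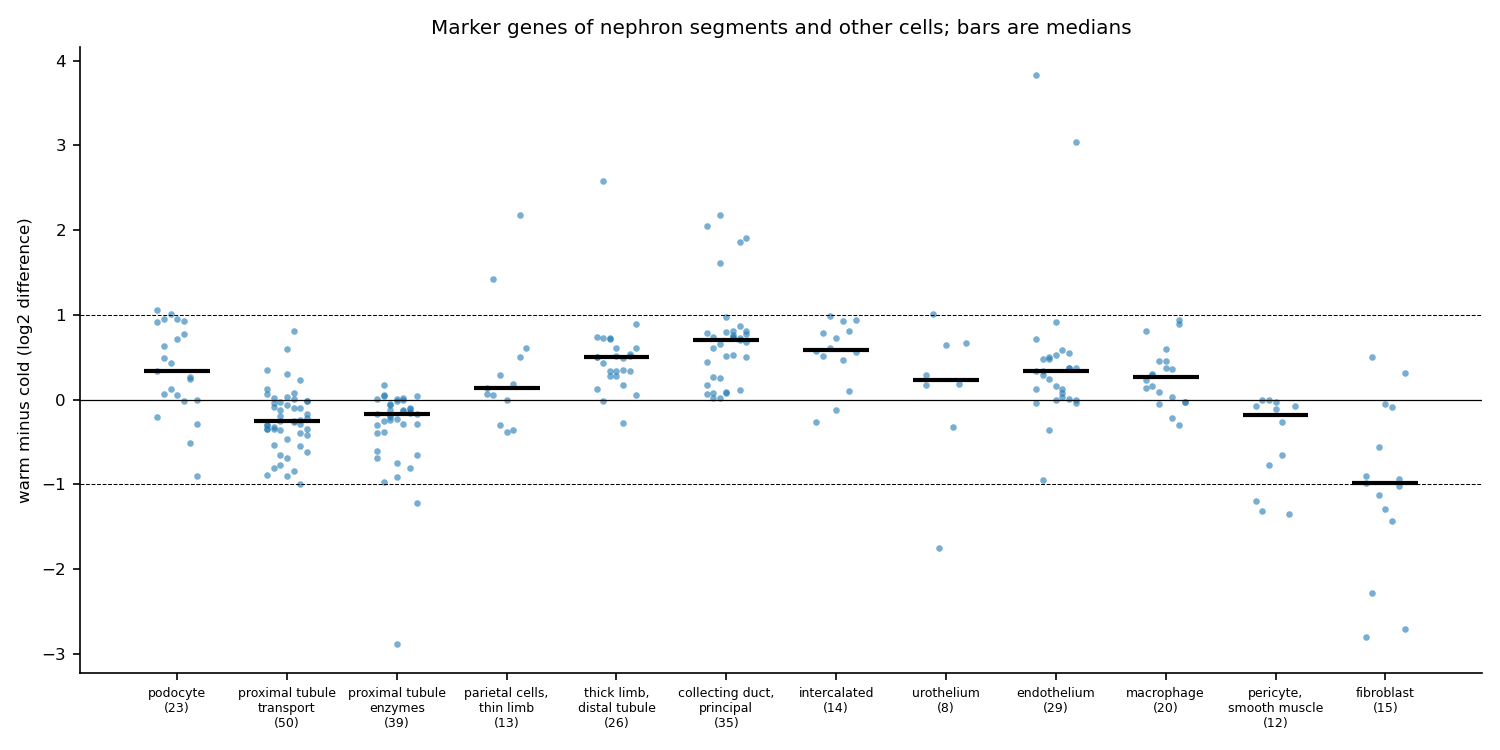
Difference between the warm and the cold array (log2) of each marker gene of nephron segments, vessels, macrophages and connective tissue; points are genes, black bars are medians, and numbers in parentheses count the genes analysed. Collecting duct markers have a median of 0.70, proximal transport genes of -0.25 and fibroblast markers of -0.98; relative to the poly-A controls all 12 medians lie below 0.

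In the collecting duct the 5 higher members were Cldn4, Elf3, Krt19, Krt18 and Aqp4. Cldn4, a claudin of tight junctions, had log2 values of 8.06 (cold), 10.24 (warm), 8.95 (heparin) and 8.71 (PPS). Elf3, an epithelial transcription factor, had 8.02, 10.07, 8.68 and 8.43, and the keratin genes Krt18 and Krt19 had 8.33, 10.19, 9.30 and 9.16, and 7.81, 9.72, 9.01 and 9.03. These genes were high on the warm array and also above the cold array on the heparin and PPS arrays. Cldn4, Krt18 and Krt19 are expressed in other epithelia and, in injured tubules, outside the collecting duct. The genes that define principal cells lay nearer to 0: the epithelial sodium channel subunits Scnn1a (0.81), Scnn1b (0.70) and Scnn1g (0.68), the mineralocorticoid receptor Nr3c2 (0.74), Hsd11b2 (0.45), Aqp2 (0.07) and Aqp3 (0.02). Intercalated cells, which secrete acid or base, had a median of 0.59 over 14 genes, 12 of them above 0 and 0 past the limit. Their transcription factor Foxi1, at 10.08 (cold), 11.07 (warm), 10.24 (heparin) and 10.49 (PPS), lay just short of it (0.99).

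Upstream of the collecting duct, only Ptgs2, the inducible cyclooxygenase, passed the limit among thick limb and distal tubule markers, with 6.86 (cold), 9.43 (warm), 8.72 (heparin) and 8.26 (PPS). Ptgs2 is also an early-response gene in many cells. The salt transporters Slc12a1 (0.44) and Slc12a3 (0.71), the calcium exchanger Slc8a1 (0.89) and Cldn8 (0.74) were within 2-fold. Among podocyte markers, Nphs1 (1.06) and Wt1 (1.01) passed the limit by little, Synpo (0.95) and Sema3g (0.91) fell short of it, and the median of the 23 genes was 0.33. A second probe set of Nphs1, with low signal, differed by 0.13.

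Proximal tubule genes differed little, most of them below 0. The sodium-bicarbonate transporter Slc4a4 had 13.96 (cold), 13.15 (warm), 13.33 (heparin) and 13.28 (PPS), and the amino acid transporter Slc7a9 had 13.31, 12.46, 12.78 and 12.69. For both, each warm-perfused array was below the cold array by less than 2-fold. The glucose transporter Slc5a2 differed by -0.89 and the phosphate transporter Slc34a3 by -0.91. The receptors Lrp2 (-0.24) and Cubn (-0.35), which take up filtered proteins, and Kap (-0.05) were closer to 0. Of the enzymes, Dpep1, a brush border dipeptidase, and Gldc, of the glycine cleavage system, were lower. Dpep1 had 7.40 on the cold array, was at the floor on the warm array and had 5.88 and 6.09 on the heparin and PPS arrays, and its second probe set had 6.99 on the cold and was at the floor on the warm array. Gldc had 10.15, 8.93, 8.35 and 8.71. Tubular injury genes had a median of 0.50 over 29 members with 5 higher, including Hbegf, an EGF receptor ligand (4.80, 7.36, 5.57 and 5.06), and Anxa1 (1.18); Havcr1 and Lcn2, injury markers of later stages, were at the floor.

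Many genes of the interstitial matrix were lower after warm perfusion. Of 11 interstitial collagen genes above the floor, 8 were lower and 0 higher after warm perfusion, against 1.16% and 2.48% of all genes, with a median of -1.34. Of 13 elastic fibre and matricellular genes 5 were lower and 1 higher (Efemp1, 1.04), with a median of -0.83. Of 17 proteoglycans and their relatives 5 were lower and 0 higher, with a median of -0.35. Of 20 basement membrane genes 0 passed the limit, and their median was -0.03, with Col4a1 at -0.59, Col4a2 at -0.36 and the laminins Lama5 and Lamc1 at 0.14 and 0.17.

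Col1a2, a chain of type I collagen, had log2 values of 9.97 (cold), 8.54 (warm), 9.09 (heparin) and 10.01 (PPS), and its second probe set differed by -1.94. Col3a1 had 9.31, 8.29, 8.89 and 9.53. The warm array was lowest for both and the PPS array exceeded the cold array. Col6a3, of the microfibrils around cells, had 9.38, 7.20, 8.34 and 9.02, and Col12a1, which coats collagen fibrils, had 9.15, 6.85, 7.83 and 8.54. Col8a2 had 8.07, 5.92, 6.42 and 7.30, and Col6a1 and Col6a2 had 5.85 and 5.89 on the cold array and lay at or just above the floor on the warm array. The exceptions within the list were Col5a1 (-0.86), Col5a2 (-0.49) and Col27a1 (0.35). The summed linear signal of the 11 collagens was 4296 (cold), 1726 (warm), 2503 (heparin) and 4109 (PPS).

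Several assembly proteins of elastic fibres were lower. Fbln5, which ties elastin to cells, had 9.38 (cold), 6.20 (warm), 7.54 (heparin) and 8.24 (PPS), 9.06-fold lower on the warm than on the cold array. Loxl1, the elastin cross-linker, had 8.75, 6.38, 7.55 and 8.42. Both were lowest on the warm array and below the cold array throughout. Efemp2 (-1.57) and Ltbp4 (-1.15), further elastic fibre proteins, were lower, and the microfibril protein Fbn1 (8.57, 7.59, 8.08 and 8.60) fell short of the limit at -0.97. Smoc2, a calcium-binding matricellular protein, had 8.13, 5.17, 8.0 and 8.99, so that the warm array stood below the other 3 together. Enzymes that modify collagen in the endoplasmic reticulum were within 2-fold, with Serpinh1 at -0.18, P4hb at 0.07 and Plod2, on the other side, at 0.83.

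Among the small proteoglycans, Dcn, which regulates collagen fibril width, had 11.26 (cold), 10.13 (warm), 10.19 (heparin) and 10.54 (PPS). Dpt, a fibril-associated protein whose promoter is printed above, had 11.32, 9.03, 10.44 and 11.26, and its second probe set differed by -2.51. For Dcn all 3 warm-perfused arrays were low, and for Dpt the PPS array was at the cold level. Ogn (-1.02), Prelp (-1.07) and Aspn (-1.26) were lower as well, while Bgn differed by -0.51 and the versican gene Vcan by -0.07. The 3 other probe sets of Ogn differed by -1.93, -0.95 and -0.82. Heparan sulfate and hyaluronan enzymes were within 2-fold in all 16 cases, and the syndecans, which carry heparan sulfate, were level in Sdc1 (-0.13), Sdc2 (-0.14) and Sdc4 (0.26).

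**Figure D5:**
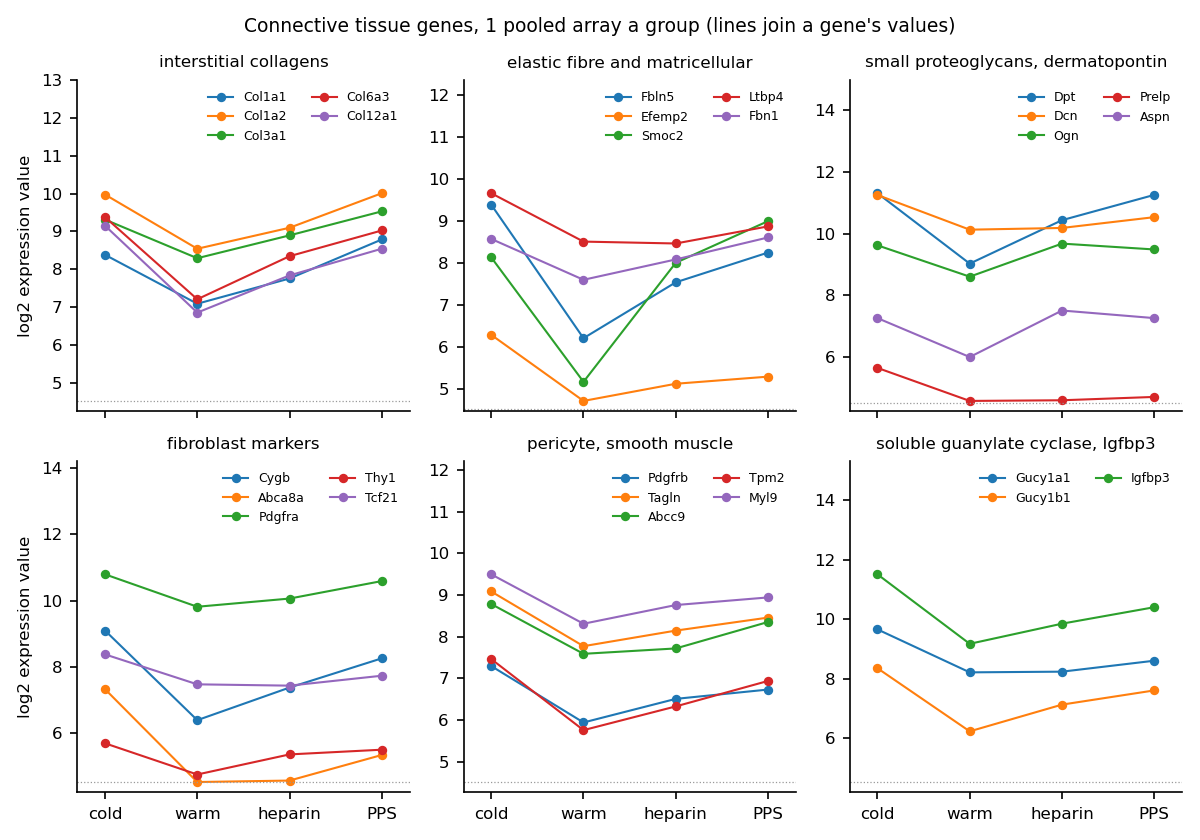
Log2 expression values of 28 genes of connective tissue on the cold, warm, heparin and PPS arrays, 1 pooled array a group; lines join the values of a gene and the dotted line is the floor. For 26 of the 28 the warm array is the lowest point. These genes were picked by hand with earlier results known, so the count describes this choice only. Acta2 and Smtn, which were level, are not drawn. For Col1a2, Col3a1 and Dpt the PPS array is back at the cold level, and relative to the poly-A controls the warm points would lie lower still.

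Proteases and their inhibitors were mixed. Of 25 genes, 1 was higher, Adamts1 (9.63 (cold), 10.67 (warm), 9.49 (heparin) and 9.07 (PPS)), and 4 were lower. Mmp2, gelatinase A, had 5.85, 4.59, 4.83 and 6.44, and Mmp11 had 8.38, 7.27, 7.93 and 8.52. Adamtsl2, which binds microfibrils, had 8.12, 5.76, 6.39 and 6.80. Serpine2, an inhibitor of thrombin and plasminogen activators, had 7.65 on the cold and was at the floor on the warm array, with 6.57 and 7.52 on the heparin and PPS arrays. Timp3 (-0.03), Timp2 (0.02) and Mmp14 (0.15) were level.

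Some markers of the cells that make this matrix were lower too. Of 15 fibroblast markers, 7 were lower and 0 higher, with a median of -0.98, and 5 of the 7 (Col1a1, Col1a2, Col3a1, Dcn and Dpt) are matrix genes counted above. Markers that are not matrix genes were Cygb, a globin (9.09 (cold), 6.38 (warm), 7.37 (heparin) and 8.25 (PPS)), and the transporter Abca8a (7.32, then at the floor on the warm array, 4.56 and 5.33). The surface markers Pdgfra (10.79, 9.81, 10.06 and 10.59) and Thy1 (5.68, 4.74, 5.35 and 5.49) fell short of the limit at -0.98 and -0.94. Gsn (0.50) and S100a4 (0.31) were the 2 members above 0, and Ebf1 was near 0 (-0.05). The summed linear signal of the list was 17727 (cold), 11043 (warm), 11937 (heparin) and 16004 (PPS). The part of fibroblast number in the lower matrix genes was not tested.

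Pericyte and smooth muscle markers differed in some members and not in others. Of 12 genes 3 were lower: Pdgfrb (7.30 (cold), 5.94 (warm), 6.51 (heparin) and 6.73 (PPS)), Tagln (9.09, 7.77, 8.15 and 8.46) and Abcc9 (8.79, 7.59, 7.72 and 8.35). A second probe set of Abcc9 differed by -0.04. Acta2, smooth muscle actin, differed by -0.07 and Smtn by -0.11, and the median of the list was -0.19. Among 36 genes of the actin cytoskeleton and YAP and SRF targets, Tpm2 (-1.71), Fhl2 (-1.43), Tagln and Myl9 (-1.19) were lower, and Ccn1 (4.12), Srf (1.31) and Ccn2 (1.02) were higher. Most endothelial markers lay above 0: 23 of 29 did, beside 46.0% of all genes, with Pecam1 at 0.33, Kdr at 0.34 and Emcn at 0.37. Another 5 lay below 0, the lowest being Vwf at -0.95. The 2 endothelial markers past the limit, Klf2 and Klf4, are early-response genes.

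Of 22 integrin and cadherin genes 4 were lower and 0 higher, with a median of 0.08. Itga1, a collagen receptor, had 10.68 (cold), 9.36 (warm), 9.89 (heparin) and 9.77 (PPS), and Cdh11, the cadherin of fibroblasts, had 8.02, 6.46, 7.38 and 7.99. Itga9 (-1.05) and Pcdh18 (-1.32) were the others. The epithelial cadherin Cdh1 differed by 0.73 and Itgb1, the common integrin chain, by -0.01.

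Of 13 vasoactive genes 1 was higher, the peptide Adm described above, and 2 were lower. Gucy1a1 and Gucy1b1, the subunits of the soluble guanylate cyclase that senses nitric oxide, were both lower. Gucy1a1 had 9.66 (cold), 8.21 (warm), 8.23 (heparin) and 8.60 (PPS), and Gucy1b1 had 8.35, 6.22, 7.12 and 7.60, with -2.11 on its second probe set. All 3 warm-perfused arrays lay below the cold array for both. The angiotensin receptor Agtr1a differed by -0.81. Of 33 other growth factors, receptors and binding proteins 3 were lower, Pdgfrb and the binding proteins Igfbp3 and Igfals. Igfbp3, the main carrier of insulin-like growth factors, had 11.51, 9.17, 9.85 and 10.40, and its second probe set differed by -2.83. Igfals, its partner in serum, had 6.92, 5.32, 5.96 and 5.95, while Igf1 (-0.03) and Igf1r (-0.21) were level. Among prostaglandin genes, Ptgs2 was higher and Ptgds, prostaglandin D synthase, lower (11.60, 10.25, 10.38 and 9.97). Of the Wnt inhibitors, Sfrp1 (9.20 and 7.79 on the cold and warm arrays) and Dkk2 (5.81, then at the floor) were lower, and Frzb fell short of the limit at -0.91; no Wnt list member was higher.

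Of 37 TGF-beta and BMP genes, 3 were higher and 1 lower, the last being the elastic fibre gene Ltbp4 named above. Id1, a BMP target, had 8.83 (cold), 10.67 (warm), 9.97 (heparin) and 9.84 (PPS), and Bambi, a decoy receptor, had 9.48, 10.73, 10.28 and 10.04. Gdf15, a stress-induced family member, was at the floor except on the warm array (5.99). Tgfb1 (0.00), Tgfbr1 (-0.05), Bmpr1a (-0.07) and Smad3 (-0.03) were level, and Smad7 (0.75) was within 2-fold. Hes1, a Notch target, differed by 1.21 and Notch1 by 0.02.

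Clock and glucocorticoid genes gave a mixed picture. Per1, which both systems induce, had log2 values of 4.54 (cold), 6.74 (warm), 4.63 (heparin) and 4.55 (PPS), whereas Per2 had 10.08, 9.22, 9.52 and 8.85. Except on the warm array, Per1 lay just above the floor of 4.51. Nr1d1, a repressor in the clock, had 4.96, 7.38, 6.59 and 6.95, and Bmal1, which it represses, differed by -0.54. The glucocorticoid targets Tsc22d3 (-0.15), Sgk1 (0.26) and Fkbp5 (-0.62) were within 2-fold, so that the 4 higher members of 16 (Dusp1, Cebpd, Per1 and Ddit4) are ones that other lists share. The time of day at which animals were used was not given in the sources used here.

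Of 49 ubiquitin ligases and deubiquitinases, 2 were higher and 2 lower (4.08% each, against 2.48% and 1.16% of all genes). Otud1, a deubiquitinase, differed by 1.21, Klhl25, an adaptor of a ubiquitin ligase, by -1.46 and the deubiquitinase Usp12 by -1.38, and Rnf122, with the cold array at the floor, by at least 1.47. Of 54 renal phase I and II enzymes, which process drugs and other foreign compounds, Gsta3, a glutathione transferase (1.08), and Nqo1 were higher, and Akr1b8, an aldo-keto reductase (-1.71), was lower. These are 3.70% and 1.85% of that list, near the shares of all genes. The haemoglobin gene Hbb differed by -1.14 and the immunoglobulin joining chain Jchain by -1.06. Of 23 cell cycle genes and 13 reference genes, 0 passed the limit, with medians of 0 and -0.01.

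Genes in none of the lists supplied 115 of the higher and 52 of the lower genes. Among those with both arrays above the floor, the largest differences on the higher side were those of Apoc2, Kcnab1, Cd83 and Cks2. Apoc2, the cofactor of lipoprotein lipase, had 4.68, 8.03, 5.68 and 5.22, and Kcnab1, a subunit of potassium channels, had 4.64, 7.59, 6.92 and 6.97. The cold values of both lay just above the floor of 4.51, and a higher floor would shrink their differences. Cks2, a partner of cyclin-dependent kinases, had 6.04, 8.52, 7.47 and 7.56. Cd83, a marker of activated dendritic cells, had 7.02, 9.74, 8.11 and 8.06, and Ch25h, which makes 25-hydroxycholesterol, had 7.01, 9.18, 8.0 and 7.68. These 5 were highest on the warm array. Zfand2a, an arsenite-inducible partner of the proteasome, had 8.56, 10.94, 9.43 and 9.19, and Sphk1, which makes sphingosine 1-phosphate, had 7.64, 9.12, 8.54 and 8.55. Depp1, a target of FOXO factors, was at the floor in the cold kidneys and at 8.30 (warm), 7.13 (heparin) and 6.30 (PPS), at least 13.8-fold higher in the warm than in the cold kidneys. Hilpda, a lipid droplet protein induced in hypoxia, was at least 2.51-fold higher and the chemerin-binding receptor gene Ccrl2 at least 3.92-fold.

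On the lower side, where Plcxd2 (-1.92) and Smarcad1 (-1.88) followed Cpne7 and Akr1b10 among genes above the floor on both arrays, Cpne7 had 9.33, 5.65, 7.65 and 8.15, 12.9-fold lower in the warm than in the cold kidneys. Olfml3, a secreted matrix protein, had 7.60 (cold), was at the floor (warm) and had 5.41 (heparin) and 6.60 (PPS), at least 8.51-fold lower, and Islr, a marker of mesenchymal cells, had 7.97, 6.17, 6.67 and 7.40. Cpne7, Olfml3 and Islr were lowest on the warm array. The chloride channel Cftr had 7.35, 6.09, 7.80 and 7.39, so that only the warm array stood below the cold array. Pik3r1, a regulatory subunit of PI3 kinase, had 6.11 (cold) and 4.88 (warm) and was at the floor on the other 2 arrays. The kallikrein-related gene Klk1c4 (10.72, 8.93, at the floor and 9.16) and the aldo-keto reductase Akr1b10 (8.23, 6.25, at the floor and 7.67) were lowest on the heparin array, and Klk1c4 belongs to a family of near-identical genes whose probe sets may read each other.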

How the data were processed

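The values were log2 expression values deposited by the authors, made with GCRMA per the submitters' processing notes, its version not given in the sources used here; that they are on a log2 scale was read from their range of 2.11 to 16.4. The array held 31099 probe sets, of which 57 were controls. Of the others, 20832 carried 1 gene symbol in the platform annotation, 436 several and 9780 none; 20764 were named through RefSeq GRCr8 by their Entrez number. Each of 14217 genes was read from its brightest probe set by the mean of the 4 arrays (4525 had several). Values under the 50th percentile of all values (4.51) were raised to it, and a gene at the floor on all arrays was left out. With 1 pooled array a group no test was made, and a difference of 1 on the log2 scale (2-fold) was the limit for a call. The arrays' number, and no sequencing depth, limits the precision.

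Genes were named as members of 78 lists (2634 symbols, 2298 on the array). Outside the lists the rule was the 25 largest differences a direction with both arrays above the floor, and up to 15 with 1 array at it, plus at most 4 genes within 0.02 of the limit. Members and lists were chosen with earlier results of these data known. Python 3.11.15, pandas 2.3.3, NumPy 2.4.6 and matplotlib 3.10.9 were used, and the scripts were tested on simulated data. Alternatives changed the floor, the choice of probe set and the scaling between arrays.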

Additional observations from a re-analysis of the deposited data

How the results depend on the processing

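No replicate check exists, so these alternatives show only how the processing moves values. No paired analysis was possible because each group is 1 array and the results come from no test. Against 233 genes higher and 109 lower, the counts were 254 and 115 without a floor, 270 and 122 with the floor at the 40th percentile, 165 and 63 with it at the 60th, 196 and 95 with the mean of a gene's probe sets, 199 and 103 with their median, 195 and 97 for genes above the floor on both arrays, 223 and 111 with array medians set equal, and 218 and 112 after quantile normalization. Scaling to the hybridisation controls gave 116 and 417, and to the poly-A controls 68 and 7136. By construction those 2 scalings shift all values of an array together before the floor is applied, and which scale is right was not tested.

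Single genes were followed under the alternatives only where they were called list members or were named outside the lists by the rule above. Other called genes, such as Tent5a, were not followed and may turn as well. Among the genes followed, Egfr turned from lower to 0.40 with the median of all its probe sets. Under the poly-A scaling these genes turned from higher to below 0: Adamts1 (-0.16), Anxa1 (-0.013), Bcl2l11 (-0.038), Bcl3 (-0.12), Ccn2 (-0.17), Cxcl11 (-0.087), Efemp1 (-0.15), Gadd45a (-0.0096), Gla (-0.068), Gsta3 (-0.11), Hspa2 (-0.029), Il18 (-0.060), Jund (-0.086), Nfil3 (-0.050), Nphs1 (-0.13), Nqo1 (-0.13), Psca (-0.18), Rhou (-0.048), Sat1 (-0.098), Spry1 (-0.12), Srxn1 (-0.14) and Wt1 (-0.18).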
